A study of Mus musculus with 6 samples.

Results

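Accessible regions that were called in every library, yet stood taller in regulatory T cells (Tregs) of wild-type (WT) mice than in those of mice lacking Il33 (KO), are described here. The assay was ATAC-seq, where the enzyme Tn5 inserts sequencing adapters into open DNA, and the data were 1 peak list per library. There were 3 WT libraries, from C57BL6 mice, and 3 KO libraries, from il33-/- mice of a C57BL6 background. All the mice carried B16.F10 melanoma, a transplantable line, after 300000 cells had been placed under the skin, and Tregs were taken 14 days later from the lymph nodes draining the tumour by a sort for CD4+CD25+GITR+ cells. Age, sex, and whether a library stands for 1 mouse or a pool are not given in the sources used here. Peaks of the 6 lists were merged where they overlapped, which gave 64817 regions, and 28808 autosomal regions held a peak in every list. In each region and library the highest pileup, the number of 200 bp tags stacked over a summit, was divided by the median of that library over these shared regions, and the quotient is called the scaled height. A region was taken as taller in WT where the lowest WT scaled height lay above the highest KO one and the WT mean was at least 1.3 times the KO mean. The rule found 860 regions, 2.99% of the shared regions. Without the fold, the groups did not overlap in 1859 shared regions higher in WT (6.45%) and in 4258 higher in KO (14.8%). These regions were chosen by the heights of all 6 libraries, so every height given for them is a description, without a test. The rule favours regions whose replicates lie close together, so an SE given below can be too small.

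IL-33 is a cytokine of the IL-1 family that is stored in the nuclei of barrier and stromal cells and released on damage. Its receptor ST2, encoded by Il1rl1, signals through MyD88 to NF-kB and is carried by a subset of Tregs, in which it is known to favour tissue-type genes such as Areg and Gata3. Accessible chromatin marks promoters and enhancers at which transcription factors displace nucleosomes, and the height of an ATAC-seq peak reflects how often the site was cut across the sorted cells. In a sorted population, a site open in fewer cells and a site cut less often in each cell cannot be told apart.

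Sequences are shown for the promoters that lie inside regions taller in WT and on which the account below turns, at an effector gene of lymphocytes, a growth factor gene of tissue Tregs, a myeloid factor gene, and a cell cycle gene at one of the tallest regions. Each is the 250 bases before the annotated start, read 5′ to 3′ on the strand of the gene, from the RefSeq promoter table on GRCm38.p6, the assembly behind mm10. Capitals mark matches on either strand to 9 motifs, which are ETS (CCGGAAG), SP/KLF (GGGCGG), NF-Y (CCAAT), NRF1, YY1 (AAGATGGC), CRE (TGACGTCA), AP-1 (TGANTCA), RUNX (TGTGGTT) and the NF-kB consensus.
Gzmb, chr14:56262335-56262584, minus strand: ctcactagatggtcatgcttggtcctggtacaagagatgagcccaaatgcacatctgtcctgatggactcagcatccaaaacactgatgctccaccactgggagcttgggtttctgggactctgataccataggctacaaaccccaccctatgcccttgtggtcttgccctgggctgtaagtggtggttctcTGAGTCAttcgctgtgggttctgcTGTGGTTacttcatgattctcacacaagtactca
Areg, chr5:91139349-91139598, plus strand: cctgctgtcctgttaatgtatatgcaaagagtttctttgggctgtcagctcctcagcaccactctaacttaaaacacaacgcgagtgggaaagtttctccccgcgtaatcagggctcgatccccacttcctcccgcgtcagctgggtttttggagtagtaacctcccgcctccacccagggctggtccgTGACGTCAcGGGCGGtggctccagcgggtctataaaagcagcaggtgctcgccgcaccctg
Cebpa, chr7:35119043-35119292, plus strand: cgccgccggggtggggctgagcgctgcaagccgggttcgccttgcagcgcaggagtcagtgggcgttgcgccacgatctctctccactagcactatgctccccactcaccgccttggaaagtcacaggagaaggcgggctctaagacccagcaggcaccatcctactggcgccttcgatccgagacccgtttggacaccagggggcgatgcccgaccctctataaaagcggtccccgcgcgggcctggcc
Anapc7, chr5:122422194-122422443, plus strand: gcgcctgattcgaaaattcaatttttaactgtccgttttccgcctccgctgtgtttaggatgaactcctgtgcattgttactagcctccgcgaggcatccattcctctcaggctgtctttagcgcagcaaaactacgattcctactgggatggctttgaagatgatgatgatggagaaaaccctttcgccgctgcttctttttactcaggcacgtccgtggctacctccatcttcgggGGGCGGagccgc
The Gzmb stretch held 1 AP-1 and 1 RUNX match, letters found in 7.81% and 5.27% of all 32851 promoter windows of 300 bases. The Areg stretch held a CRE match (1.79% of all windows) next to an SP/KLF match (35.7%). Neither an AP-1 nor an NF-kB match stood in the Areg, Cebpa or Anapc7 stretch, which says only that these letters are not in that window. The median summit of the 6 libraries lay at position -6 from the start at Gzmb, -58.5 at Areg, -95.5 at Cebpa and -9.5 at Anapc7.

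The labelled cell type was checked at marker genes. All 6 Treg markers (Foxp3, Il2ra, Ctla4, Ikzf2, Tnfrsf18 and Nrp1) had peaks in each library, 66 to 73 in all per WT list and 47 to 53 per KO list. B cell markers had 34 to 40 peaks in WT and 22 to 30 in KO lists, with no peak at Ms4a1. CD8 T and NK cell markers had 16 to 18 and 8 to 12, with none at Ncr1 or Klra1. Myeloid markers had 30 to 33 and 23 to 27, with none at Lyz2, Csf1r or Adgre1. Melanoma markers had 18 to 21 and 16 to 18, with none at Tyr, Tyrp1, Dct or Slc45a2. Every library had peaks at 10 of 12 B cell and 5 of 12 CD8 T and NK cell markers. The same held for 10 of 13 myeloid and 6 of 10 melanoma markers. The tallest of these peaks, at Pmel, had a scaled height of 2.87 to 3.21 in WT and 3.57 to 4.55 in KO. Tnfrsf18, the tallest Treg marker, had 2.68 to 2.83 and 3.10 to 3.41. Peaks within 10 kb of a gene were counted, so these counts do not measure the purity of the sort. The libraries held 12.9 to 15.2 M (mega) tags in WT and 4.72 to 10.3 M in KO after removal of duplicates, so each KO library was shallower than each WT library. In the heights below, sequencing depth therefore cannot be told apart from the genotype.

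In the regions taller in WT the median raw height was 33, 34 and 33 tags in WT replicates 2, 4 and 6, and 14, 10 and 15 tags in KO replicates 1, 2 and 4. Over all shared regions the same medians were 46, 47 and 47 tags in WT and 27, 20 and 30 tags in KO. Scaled to those medians, the regions taller in WT stood at 0.717, 0.723 and 0.702 in WT and at 0.519, 0.5 and 0.5 in KO. They were thus lower than a typical shared region in both genotypes, and further below it in KO. The ratio of the WT to the KO mean had a median of 1.41 (quartiles 1.35 and 1.501) and reached 3.01. For 643 of the 860 the ratio was under 1.5, and for 5 it was at least 2. Over all shared regions the median log2 ratio was -0.047, and 41.6% of regions had a ratio above 1.

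No single library set the rule. The highest KO value came from KO replicate 1 in 341 regions, from KO replicate 2 in 243 and from KO replicate 4 in 276. The lowest WT value came from WT replicate 2 in 285, from WT replicate 4 in 275 and from WT replicate 6 in 300. Replicates spread more in KO, where the median within-group SD of the log2 scaled height was 0.22, than in WT, where it was 0.14. Just inside the fold of 1.3 lay regions at Spata3 (1.30004) and Gtf3c3 (1.3002), and just outside it otherwise qualifying regions near Stil (1.29997) and Dnah7a (1.29988).

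**Figure D1:**
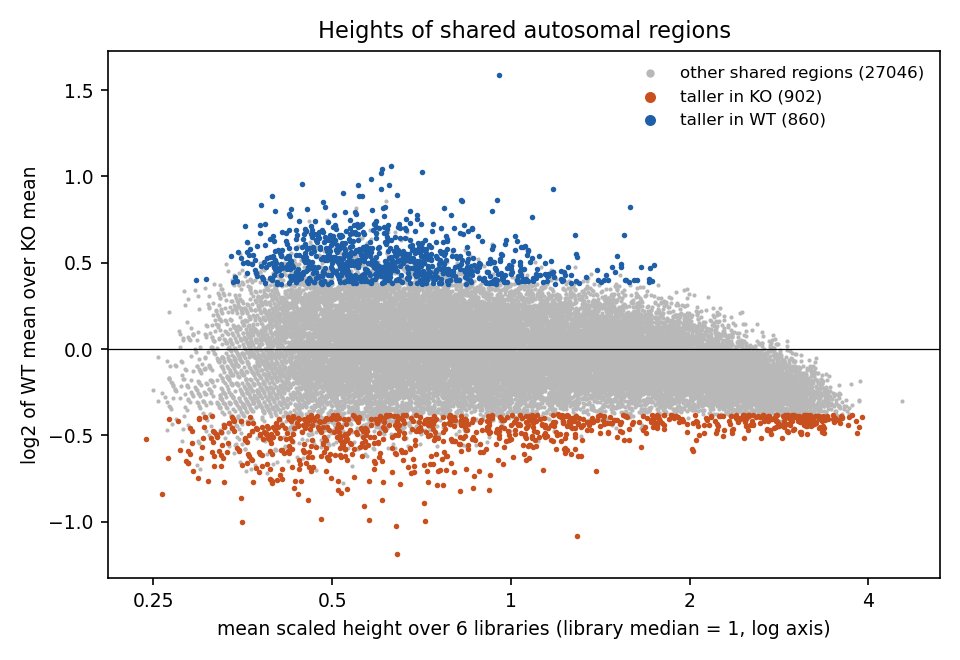
Each point is a shared autosomal region, with the mean scaled height over the 6 libraries on the x axis (log axis) and the log2 ratio of the WT to the KO mean on the y axis. The 860 regions taller in WT lie at low and middle heights and none lies in the 2 highest of 10 height classes, whereas the 902 taller in KO span the range.

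Height and direction went together. When the shared regions were put in 10 classes of equal size by mean scaled height, the lowest class held 159 regions taller in WT, the next 218 (7.57% of the class, the highest share of the 10 classes), and the classes after it 173, 135, 83, 54, 23 and 15. The 2 highest classes, above a mean scaled height of 1.89, held 0 of 2881 each. Regions taller in KO by the mirrored rule numbered 902 (3.13% of the shared regions), with 181 in the lowest class and 163 in the highest. The median log2 ratio of all regions in a class went from 0.047 in the second class to -0.22 in the highest. Only 1 tag was kept per position and strand in every library, and the tallest shared region reached 185 to 195 tags in WT and 107 to 141 in KO libraries. The part of depth and of this limit in the fall of the ratio with height was not tested.

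**Figure D2:**
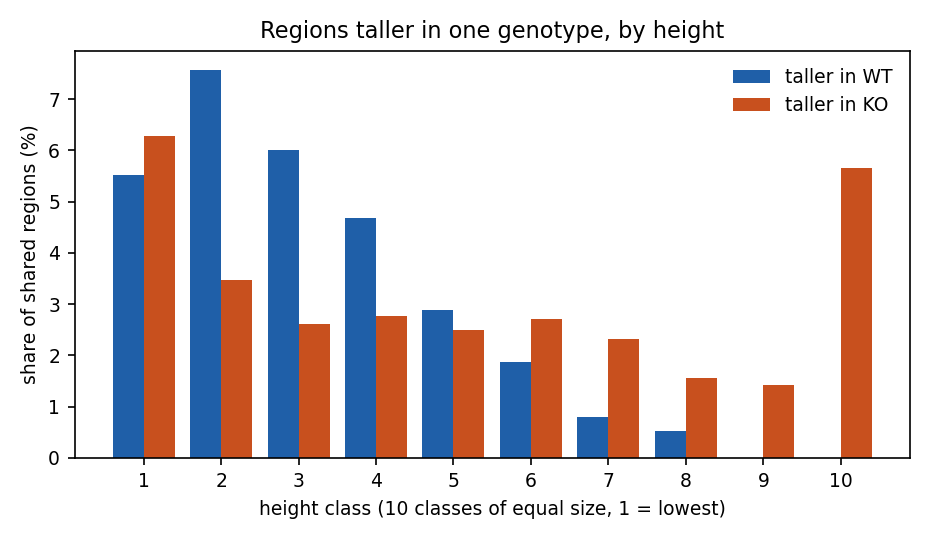
Bars give the share of shared regions (y axis, %) that were taller in WT or in KO within 10 classes of equal size by mean scaled height (x axis, 1 lowest). The WT bars peak at 7.57% in class 2 and are at 0 in classes 9 and 10, while the KO bars are highest in classes 1 and 10.

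Counting error was large at these heights. Of the 860 regions, 530 had 10 tags or fewer in some KO library, and 44 (5.12%) had at least 20 tags in every library, against 49.6% of all shared regions. Exact Poisson 95% intervals of the raw heights, scaled in the same way and covering counting error only, were set between the lowest WT and the highest KO library of each region. They were apart in 1 of the 860, the region between Rell1 and Pgm2 described next. The lowest WT value was at least 1.5 times the highest KO value in 10 regions and at least 1.1 times in 497. The count also moved with the scaling: dividing by the median of ratios to the mean library gave 1254 regions taller in WT and 511 in KO, and dividing by the upper quartile gave 1248 and 509. Under both, 71.0% of the calls were taller in WT, against 48.8% with the library median, and all 860 were called. With heights divided by the number of tags kept, 558 were taller in WT and 718 in KO, and 427 of the 860 (49.7%) were among the 558.

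The largest ratio of the set lay in the gap between Rell1, which encodes a member of the RELT receptor family, and Pgm2, which encodes an enzyme of the phosphoglucomutase family. It was 1 of 2 regions of that gap among the 10 largest ratios. All 5 shared regions in a stretch of 46.6 kb on chromosome 5 (chr5:64024148-64070709, mm10) were taller in WT, by ratios of 1.74 to 3.01. This was the longest run of consecutive shared regions taller in WT, and it was singled out after its values were seen. At chr5:64029512-64031001 the height was 66, 61 and 74 tags in WT replicates 2, 4 and 6 and 13, 11 and 12 tags in KO replicates 1, 2 and 4. The scaled height was 1.44 ± 0.138 in WT and 0.477 ± 0.0751 in KO (SD, n = 3 each), a ratio of 3.01 and a log2 difference of 1.60 ± 0.16 (SE). Each WT library thus stood above the library median there and each KO library at 0.55 of it or lower. Its scaled Poisson interval started at 0.993 in the lowest WT library and ended at 0.984 in the highest KO library.

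The other regions of the run showed the same order with smaller ratios. The most distal from the Rell1 gene, at chr5:64070055-64070709 and 22.2 kb from Pgm2, had 46, 45 and 42 tags in WT and 14, 9 and 13 in KO, a ratio of 2.03. The tallest, at chr5:64040444-64041243, had 92, 88 and 104 tags in WT and 30, 28 and 28 in KO, a ratio of 1.77. The regions at chr5:64024148-64024941 (47, 48 and 54 against 17, 12 and 16 tags) and at chr5:64044787-64045767 (59, 50 and 56 against 22, 11 and 20 tags), the latter overlapping the non-coding gene 5830416I19Rik, had ratios of 1.81 and 1.74. A sixth region in the stretch, chr5:64038356-64038685, was called in all 3 WT and 0 KO libraries. The difference was not seen at the ends of the flanking genes. Further out, a region inside Rell1 (chr5:63906324-63907017) had 42, 37 and 41 tags in WT and 22, 12 and 17 in KO. Its ratio of 1.298 lay just under the fold, and the scaled heights of the groups overlapped. At the Rell1 gene end the height was 114, 103 and 121 tags in WT and 71, 52 and 75 in KO, a ratio of 0.937. At the Pgm2 gene end it was 88, 103 and 87 against 53, 46 and 47 tags, a ratio of 1.02. The local background implied by the authors' fold enrichment, which is taken over 10000 bp and so can include neighbouring peaks, was 4.14 times the genome-wide level in WT and 1.06 times in KO at the region with the ratio of 3.01. With the authors' fold enrichment in place of the height, 4 of the 5 were no longer taller in WT, the exception being the region nearest to Pgm2. The log2 ratio at the region 60.5 kb from Rell1 was then 0.29, against 1.59 by height.

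**Figure D3:**
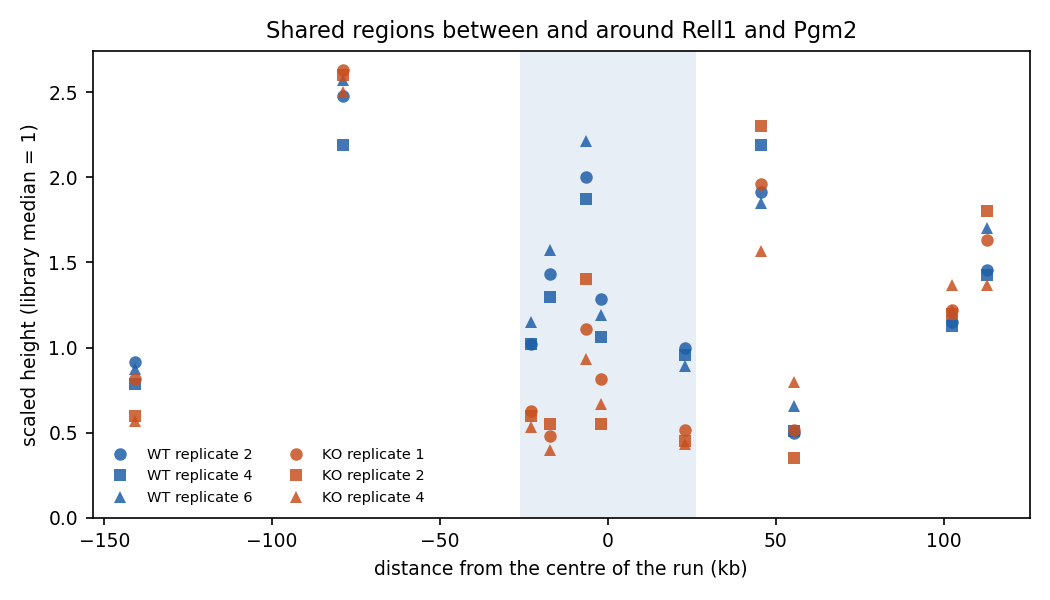
Scaled heights (y axis, library median at 1) of the shared regions within 150 kb of the centre of the run between Rell1 and Pgm2 (x axis, kb), with 1 point per library. In the shaded stretch all WT points of a region lie above all its KO points, with ratios of 1.74 to 3.01, and at the regions outside it the points of the genotypes mingle or nearly touch, with ratios of 0.922 to 1.298.

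Other large ratios lay on several chromosomes, and most of these regions stood below the library median in WT. Near Mpp7, which encodes a scaffold protein of cell polarity, a region inside the gene (chr18:7608610-7609114) had 30, 26 and 26 tags in WT and 6, 7 and 10 in KO, a ratio of 1.94. A second region 65.9 kb outside that gene (chr18:7692809-7693540) had 71, 75 and 70 tags in WT and 17, 20 and 24 in KO, a ratio of 1.91 and a log2 difference of 0.96 ± 0.20 (SE, n = 3 each). Among the 10 largest ratios, only this region and the one 60.5 kb from Rell1 stood above the library median in every WT library. The shared region between both Mpp7 regions was not taller in WT. A region 11.3 kb from Cst7, the gene of cystatin F, a protease inhibitor of immune cells, had 43, 32 and 44 tags in WT and 11, 7 and 14 in KO (chr2:150558412-150559126), a ratio of 2.09. Inside Mthfsd, 0.93 kb from its end (chr8:121092558-121093195), the heights were 45, 36 and 33 against 10, 7 and 14 tags, a ratio of 2.06. Inside Lsamp, a neuronal adhesion gene (chr16:42164962-42165323), they were 45, 39 and 29 against 13, 7 and 11 tags, a ratio of 2.02.

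The remaining regions among the 10 largest ratios lay inside Gm281 and Immp2l, a mitochondrial peptidase gene, and 83.5 kb from Gm14444, with ratios of 1.93 to 1.98. All 3 held 16 or fewer tags in every KO library, and at Immp2l the lowest WT library was only 1.04 times the highest KO one. By the gap between the nearest libraries, regions 41.7 kb from the phosphatase gene Ppm1l (36, 37 and 37 against 13, 9 and 12 tags, ratio 1.77) and inside Gas2 (37, 39 and 41 against 14, 10 and 10 tags, ratio 1.85) also stood out. The lowest WT value there was 1.63 and 1.55 times the highest KO value.

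The 6 tallest regions of the set had ratios of 1.31 to 1.40, and 5 of them lay at gene ends. At Snrpd1, which encodes a core protein of the spliceosome (chr18:10617418-10618382), the heights were 98, 90 and 96 tags in WT and 36, 33 and 41 in KO, a ratio of 1.40. At Anapc7, a subunit gene of the anaphase-promoting complex whose promoter is printed above (chr5:122421684-122422994), they were 85, 88 and 97 against 40, 29 and 37 tags, a ratio of 1.39 and a log2 difference of 0.48 ± 0.097 (SE, n = 3 each). The other 4 of the 6 tallest lay at 4930453N24Rik (1.38), Micu2, a regulator of mitochondrial calcium uptake (1.33), the zinc finger gene Zfp62 (1.31) and inside Slc15a4, a lysosomal transporter gene (1.31). In each of the 6 the WT libraries had 83 to 103 tags and the KO libraries 26 to 47. The groups were separate at every one, but at Zfp62 the lowest WT value was only 1.06 times the highest KO value. With the authors' fold enrichment none of the 6 met the rule.

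Few of the regions taller in WT lay at genes of the 12 lists. Besides T cell programs, the lists cover housekeeping controls and genes typical of other cell types. Of 580 shared regions in or within 10 kb of a listed gene, 10 (1.72%) were taller in WT, against 2.99% of all shared regions. Those at Cd22, Cebpa and Sox10 came from the lists for other cell types. Height was not matched in this comparison. The count of 10 fell to 2 with heights divided by the tags kept, where the whole set held 558 regions. Without 1 library it was 14 to 21, where the whole set held 1269 to 1584. Effector or tissue Treg genes had 3 of 73 shared regions taller in WT (4.11%) and 2 taller in KO, with a median log2 ratio of -0.015. At Gzmb, the granzyme B gene (chr14:56261785-56262657, covering the promoter printed above), the heights were 34, 35 and 32 tags in WT and 10, 12 and 14 in KO, a ratio of 1.51 and a log2 difference of 0.62 ± 0.21 (SE, n = 3 each). At Areg, which encodes amphiregulin, an epidermal growth factor receptor ligand for tissue repair (chr5:91139155-91140086, covering the printed promoter), they were 63, 51 and 63 against 28, 20 and 23 tags, a ratio of 1.35. At the suppressive cytokine gene Il10, a region inside the gene (chr1:131022527-131023157) had 44, 44 and 56 against 23, 16 and 20 tags, a ratio of 1.33. In Areg and Il10 the nearest libraries of the genotypes were 1.05 and 1.099 times apart. With heights divided by the tags kept, none of these 3 regions met the rule. With the authors' fold enrichment Areg and Il10 did not meet it either, and the log2 ratio at Il10 turned to -0.045.

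Entpd1, the gene of the ectoenzyme CD39, had the only region taller in WT among 132 at Treg core genes, where 5 were taller in KO. Of all shared regions, 2.99% were taller in WT and 3.13% in KO, so only a few of 132 would be called either way. The median log2 ratio was -0.081 at Treg core genes, beside -0.047 over all shared regions. The Entpd1 region had 39, 38 and 35 tags in WT and 20, 8 and 15 in KO, a ratio of 1.46, and WT replicate 6 and KO replicate 1 nearly met (1.005 times apart). It met the rule in 10 of 18 alternative settings. A setting without a fold cannot lose a region, and the median of ratios and the upper quartile kept all 860. With 1 library left out, fewer libraries have to separate. This count and those of the same kind below are therefore a description and no independent support. Of 42 shared regions at Th1 genes (median log2 ratio -0.037) 1 was taller in WT and 0 in KO. It lay at Ifng, the interferon gamma gene (chr10:118441958-118442444), with 35, 29 and 31 against 11, 12 and 15 tags and a ratio of 1.35, and it met the rule in 9 of the 18. Interferon response genes had 2 of 27 taller in WT and 1 in KO (median log2 ratio -0.040). The 2 lay inside Usp18, whose product removes ISG15 from proteins (30, 32 and 26 against 13, 7 and 12 tags, ratio 1.53), and at Ifit3 (26, 23 and 25 against 8, 9 and 14 tags, ratio 1.31). Usp18 met the rule in 16 and Ifit3 in 10 of the 18 settings.

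The list for the pathway from the IL-33 receptor to NF-kB covers Il1rl1, Myd88, the Irak and Traf6 genes, the kinases, the NF-kB subunits and their inhibitors. Of its 80 shared regions 0 were taller in WT and 2 taller in KO, beside 2.99% and 3.13% of all shared regions. At these shares only a few of 80 regions would be called. Without the fold, all WT values lay above all KO values in 4 of the 80, beside 6.45% of all shared regions. The list's median log2 ratio was -0.080, beside -0.047 over all shared regions. AP-1 and T cell activation genes had 0 of 79 in either direction (median -0.14). Naive and lymph node homing genes had 0 of 98 taller in WT and 8 taller in KO (median -0.14), and the housekeeping controls 0 of 34 and 1 (median -0.099). Markers of other cells gave 1 of 19 shared regions for B cells, within 10 kb of Cd22 (28, 38 and 25 against 11, 9 and 13 tags), and 0 of 4 for CD8 T and NK cells. They gave 1 of 18 for myeloid cells, at Cebpa (56, 65 and 49 against 25, 19 and 27 tags, chr7:35118052-35119578, promoter printed above), and 1 of 12 for melanoma cells, within 10 kb of Sox10 and inside Polr2f (34, 32 and 31 against 10, 12 and 17 tags). Taller in KO were 1 region at myeloid and 1 at melanoma markers, and 0 at B cell and at CD8 T and NK cell markers. The Cebpa region met the rule in 11 of the 18 settings, and its log2 ratio turned to -0.018 with the authors' fold enrichment. The median log2 ratio was 0.075 at B cell, -0.025 at CD8 T and NK, -0.039 at myeloid and 0.0043 at melanoma marker regions, and the part of such cells in the regions taller in WT was not tested. These shares rest on few regions, and no list was compared with another.

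**Figure D4:**
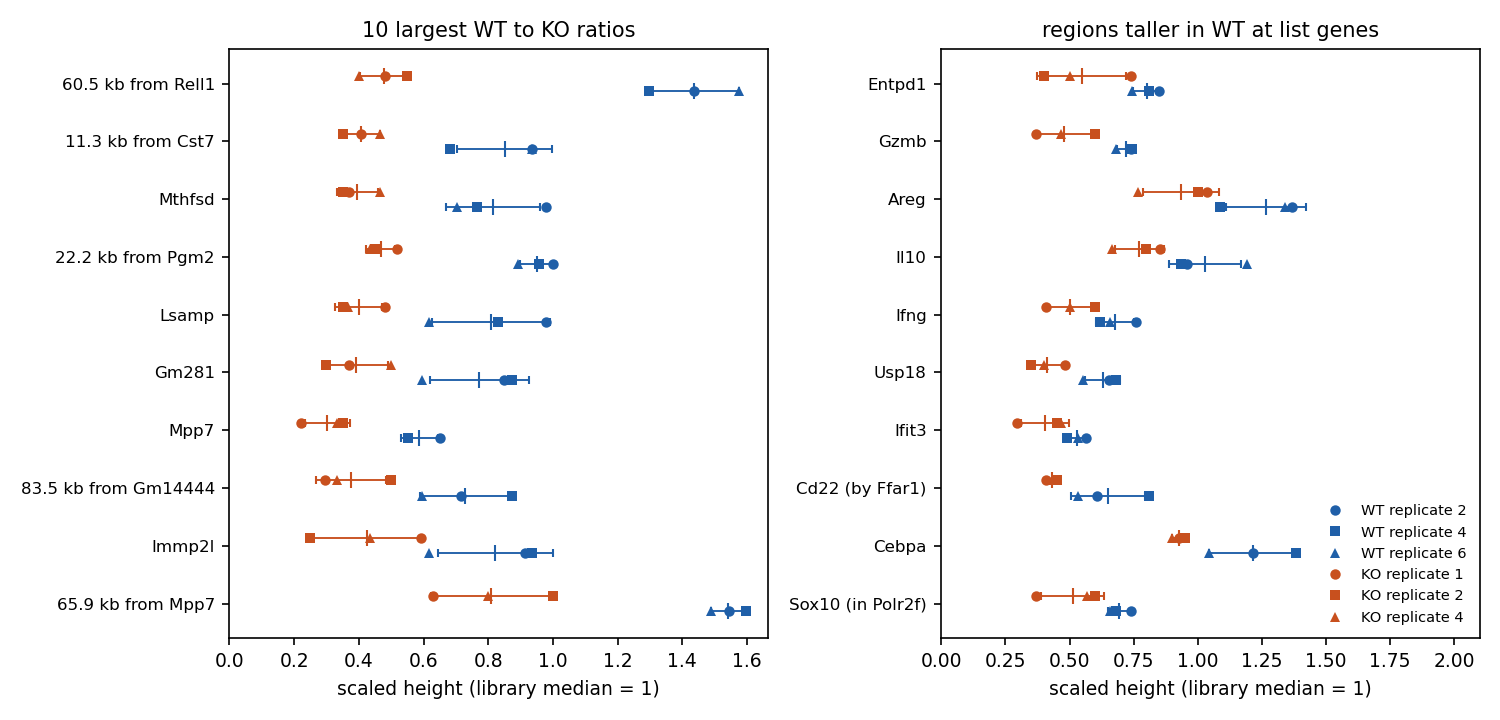
Scaled heights (x axis, library median at 1) of the 10 regions with the largest WT to KO ratio (left) and of the 10 regions taller in WT at genes of the lists (right), with 1 point per library, bars for the SD and a tick for the mean of 3 libraries. The region 60.5 kb from Rell1 has the widest gap, and at Entpd1, Areg and Ifng the nearest points of the genotypes almost touch.

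By place, regions taller in WT lay away from gene ends. Within 1 kb of either end of a protein-coding gene lay 194 of the 860 (22.6%, Wilson 95% interval 19.9% to 25.5%), against 35.4% of the other 27948 shared regions. Elsewhere in gene bodies lay 36.2% against 35.7%, and between genes 41.3% (38.0% to 44.6%) against 28.9%. These intervals count regions as independent draws, which they are not, and leave out the spread of libraries and the choice of rule. Without the fold the difference at gene ends was only -1.43 percentage points. A whole RefSeq promoter window lay in 13.7% against 27.3%. The median distance to a gene end was 11.3 kb against 6.00 kb. Regions taller in KO shared part of this, with 24.5% near gene ends and 34.4% between genes. The place was not used by the rule, but the height was, and tall regions are mostly at gene ends.

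Within classes of like height the order turned round. In the low class of 3 classes of equal size by mean scaled height, 16.2% of the 610 regions taller in WT lay near a gene end, against 11.6% of the other 8993. In the middle class the shares were 34.2% of 228 and 23.6% of 9374, and in the high class 77.3% of 22 and 69.3% of 9581. Regions taller in KO were below both in each class, at 6.56%, 10.9% and 63.4%. With at least 20 tags required in every library, 99 regions were taller in WT. Their share near gene ends was 12.2 percentage points above that of the other regions kept. Only 44 of the 99 (44.4%) were taller in WT without this filter, so the value mostly describes other regions. Among all regions taller in WT by the main rule, the low share near gene ends moved with their low height.

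**Figure D5:**
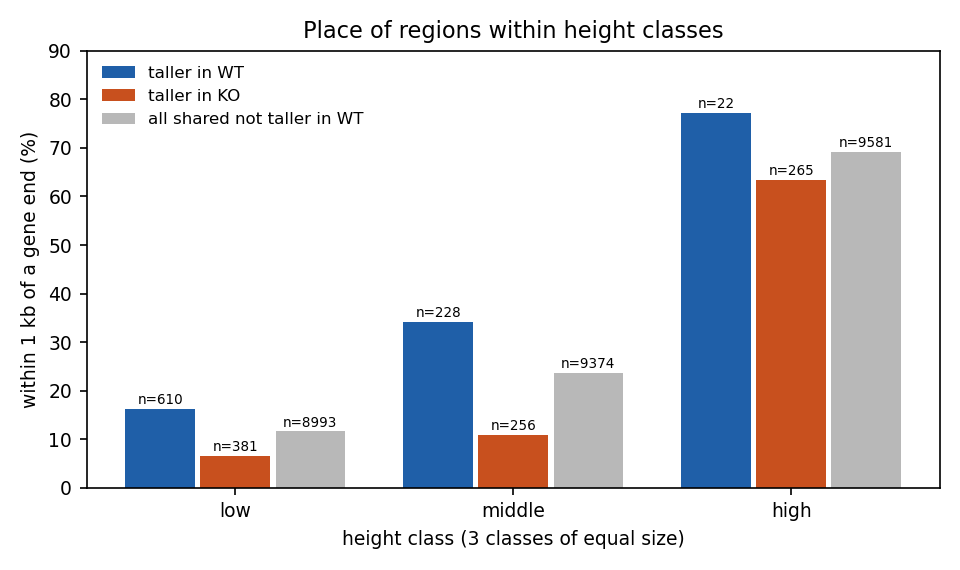
Share of regions within 1 kb of a gene end (y axis, %) in 3 classes of equal size by mean scaled height (x axis), for regions taller in WT, regions taller in KO and all shared regions not taller in WT, with the number of regions above each bar. In each class the WT bar is the highest and the KO bar the lowest, at 34.2%, 10.9% and 23.6% for the middle class.

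Regions taller in WT were narrower, with a median merged width of 667 bp (quartiles 552 and 836 bp) against 847 bp for the others and 810 bp for regions taller in KO. Width too followed height. In the low class the medians were 642 and 649 bp, in the middle class 793 and 801 bp, and in the high class 1081 and 1137 bp, for regions taller in WT and the others. Each library had exactly 1 peak in 88.6% of the 860, against 83.7% of the others. The summits of the 6 libraries spread over a median of 91.5 bp in these regions and 77 bp in the others. A region called in all 3 WT and no KO library lay within 50 kb of 24.3% of them and of 26.0% of the others.

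Along the chromosomes they were scattered. Their share of the shared regions ranged from 2.00% on chromosome 11 (47 of 2345) to 3.85% on chromosome 5 (69 of 1790). Another region taller in WT lay within 50 kb of 7.79% of them, close to the 7.27% of the other shared regions that had one within 50 kb. For regions taller in KO the same shares were 18.2% and 10.8%. Read in order along the chromosomes, 772 regions taller in WT stood alone between shared regions that were not, 38 runs held 2, and 1 run each held 3, 4 and 5. The run of 4 lay between 25.8 and 92.2 kb from Cryba4, a lens crystallin gene (chr5:112153531-112220678), with ratios of 1.305 to 1.65. The run of 3 lay between 40.1 kb from Hes1, a repressor gene of the Notch pathway, and its gene end (chr16:30024449-30067244). At that gene end the heights were 51, 52 and 50 tags in WT and 21, 17 and 24 in KO, a ratio of 1.35. The log2 difference was 0.43 ± 0.042 (SE, n = 3 each), but this run was picked after its values were seen. The scaled Poisson intervals overlapped there, reaching up to 1.36 in KO and down to 0.79 in WT, so the SE understates the error.

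Of all windows of 1 Mb, 1176 with shared regions held no region taller in WT, 479 held 1, and 4 held 5 or more. The windows named here were picked for these counts after they were seen, so they do not show a concentration. Beside the window of the Rell1 to Pgm2 run, 6 of 19 shared regions (31.6%, against 2.99% of all shared regions) in the window from 35 to 36 Mb of chromosome 7 were taller in WT. They lay inside Pepd (ratio 1.60), at Cebpa (1.31), 13.8 and 8.75 kb from the amino acid transporter gene Slc7a10 (1.36 and 1.61), at Pdcd5 (1.32) and inside Dpy19l3 (1.51). On chromosome 13, from 73 to 74 Mb, 5 of 23 were taller in WT, among them 1 inside Tert, which encodes the catalytic subunit of telomerase (40, 48 and 45 against 16, 9 and 24 tags, ratio 1.55), and 2 at Nkd2, an antagonist of Wnt signalling (1.31 and 1.33).

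Protein-coding genes lay no more than 10 kb from 603 of the 860, and of these 749 genes 21 had 2 and 2 had 3 such regions. Atxn1, the ataxin 1 gene, had 3 inside the gene, with ratios of 1.497, 1.44 and 1.305, the middle one with 35, 36 and 38 tags in WT and 14, 14 and 12 in KO. Pde4d, a phosphodiesterase gene that lowers cyclic AMP, had 3 with ratios of 1.35, 1.42 and 1.61, all inside the gene. The Atxn1 regions met the rule in 14, 13 and 9 of the 18 alternative settings, and the Pde4d regions in 12, 15 and 16. Named among the 21 genes tied at 2 were the chromatin factor gene Arid5b, Abtb2, and Arl13b with its neighbour Pros1, at ratios of 1.33 to 1.49. These counts were not set against the number of shared regions in each gene, so they do not show a concentration. Around Il33 itself, 3 of 136 shared regions within 5 Mb were taller in WT, beside 2.99% of all shared regions. The shared region inside Il33 had 24, 36 and 24 tags in WT and 21, 12 and 23 in KO, a ratio of 0.839. Which part of Il33 the il33-/- allele lacks is not stated in the labels, so this region does not check the genotype.

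The 118 regions taller in WT that held a whole RefSeq promoter window had promoters of ordinary base composition. Their median GC content was 63.3% and their median CpG count 22 per 300 bases, against 62.3% and 23 for the 7640 other shared regions with a promoter. Of the 9 motifs, CCAAT, the core letters bound by the trimeric factor NF-Y, differed most in frequency. It was found in 28 of the 118 promoters (23.7%), in 39.6% of the 7640 and in 105 of 162 promoters of regions taller in KO (64.8%), beside 37.4% of all promoter windows in the table. Among regions with a promoter, the median log2 ratio was -0.13 for the 3051 with CCAAT and -0.059 for the 4707 without. By height class, CCAAT stood in 12 of 46 promoters taller in WT in the low class (26.1%), 12 of 57 in the middle class (21.1%) and 4 of 15 in the high class (26.7%). The other shared promoters had it in 28.9%, 29.4% and 43.1% of these classes. Promoters taller in KO had it in 3 of 9 and 1 of 10, and in 70.6% of 143 in the high class. The share was thus below that of the others in each class, but close to it in the low class. The margin was widest in the high class, which held only 15 promoters taller in WT. CCAAT was singled out of the 9 motifs for its difference, so these shares are a description. ETS letters stood in 20.3% against 20.9%, SP/KLF letters in 61.9% against 70.7%, NRF1 letters in 8.47% against 12.04% and the NF-kB consensus in 3.39% against 5.17%. The CRE letters shown at Areg stood in 6 of the 118 (5.08%) and in 3.98% of the others, and the AP-1 and RUNX letters shown at Gzmb in 4.24% and 5.08% against 4.49% and 3.91%. A match is a description of the letters and no evidence of binding.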

How the data were processed

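ATAC-seq peak lists of 6 libraries, 3 WT and 3 KO, were grouped by the genotype in the labels. Per the file headers, the authors called peaks on each library alone with MACS 2.1.1.20160309, without a control, at a q-value of 0.05, with tags shifted by -100 bp, extended to 200 bp and 1 kept per position. The submitters' processing notes name mm10, Bowtie2 2.3.1 and Picard 1.88. The deposited pileup is a signal not scaled to depth, the deposited fold enrichment is a ratio to the local background, and the authors also give each peak a −log10 q-value and its −log10 p-value. Height and fold give that p-value as a Poisson tail in 100% of peaks, to within 0.01 plus 0.001 of the value on the −log10 scale. A fixed q-value lets deeper libraries call weaker sites, and KO heights under a library's calling limit drop a region from the shared set.

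Regions were merged at 1 bp of overlap and annotated with 21900 protein-coding genes of RefSeq on GRCm38.p6. Of 200 list symbols 198 matched. Regions were named as the 10 largest ratios, the 6 widest gaps, the 6 tallest, up to 3 per list, the 5 genes with most regions and 2 on each side of the fold. Motifs, runs and windows were chosen after the data were seen, and the Gzmb, Areg and Cebpa promoters were added to the rule's 1. The members and lists were chosen with earlier results of these data known. The software was pandas 2.3.3, SciPy 1.17.1, NumPy 2.4.6 and Matplotlib 3.10.9 under Python 3.11.15, and the steps were tested on simulated data. Replicates may be technical.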

Additional observations from a re-analysis of the deposited data

How the results depend on the processing

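The number of regions taller in WT (860) moved to 558 with heights divided by the tags kept, 567 with a −log10 q of at least 5 in every list, 99 with at least 20 tags in every library, 217 with a fold of 1.5 and 1859 without a fold. Without 1 library it ranged from 1269 to 1584, the largest being without KO replicate 4. It was 1478 without WT replicate 6, 1535 without KO replicate 1 and 1581 without KO replicate 2. Fewer libraries then had to separate, and the shared set also grew, from 28808 to between 28926 and 32612 regions. The part of each was not tested. The number taller in KO (902) moved to 511 and 509 with the median of ratios and the upper quartile, 583 with the stricter q-value, 601 with windows of 200 bp around summits, 205 with at least 20 tags, 165 with a fold of 1.5 and 4258 without a fold (14.8% of shared regions, against 6.45% for WT), and ranged from 1003 to 1789 without 1 library. No region taller in WT became taller in KO under an alternative. Filters, other folds, the replicate block and leaving out a library could hardly turn a region chosen by the rule. For these settings the absence is no support. The share near gene ends relative to other shared regions was -12.8 percentage points. It was -25.2 with the authors' fold enrichment, -16.7 with a fold of 1.5 and -1.43 without a fold. Without 1 library it was -15.6 to -11.9. With at least 20 tags it was 12.2, so turned round, but only 44 of the 99 regions then taller in WT were among the 860. The width relative to other shared regions (0.787) was 0.739 with fold enrichment, 0.944 with at least 20 tags, 0.838 with 1 peak per list, 0.871 without a fold, 1.06 with windows of fixed width, which remove it by construction, and 0.785 to 0.826 without 1 library. With the authors' fold enrichment in place of the height, 15 of 29 named regions moved by more than the spread of replicates, 13 of them towards no difference and 2 to the other direction, Il10 (log2 -0.045) and Cebpa (-0.018). Under the other alternatives that gave these regions a value, 0 moved that far. Leaving out 1 of 3 libraries can hardly shift a group mean by more than that spread. For those settings the 0 was thus largely fixed in advance and is no support. The cause of the moves with fold enrichment was not tested.

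Replicate numbers 2 and 4 occur in both genotypes, but the labels do not say that they mark a shared source. Used as a replicate block over these pairs alone, they gave 1863 regions taller in WT and 2248 taller in KO, with a share near gene ends of -15.7 percentage points relative to other shared regions; 716 of the 860 were among the 1863. With 2 pairs, fewer libraries had to separate.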
